A study of Mus musculus with 12 samples.

Results

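RNA levels of 57 mouse genes of mitosis and chromosome segregation were examined in MEF cells by RNA-seq. The genes were chosen by name, from their known roles, as cyclins, kinases, kinetochore and cohesion proteins, condensin subunits, spindle motors and cytokinesis proteins. The choice was made with earlier results of these data known, so the counts below only describe this set. Of the 43280 entries in the table of the IDH2 experiment, 57 carried a name of this group, and of the 23930 entries in the table of the 2-HG experiment, 56 did. Ccnb1 was not analysed in the 2-HG experiment. MEF cells are fibroblasts, isolated here from C57BL/6 mouse embryos at embryonic day 13.5 and immortalized by serial passage, and all 12 libraries come from such cells. Control cells carried the empty retroviral vector and 2MUT cells stably expressed, from the same kind of vector, a cancer-associated mutant of human IDH2 that turns α-ketoglutarate into 2-hydroxyglutarate (2-HG). In the other experiment, 2-HG(+) cells received 300 μM of membrane-permeant 2-HG for 24 h and 2-HG(-) cells, by the labels, the solvent DMSO for the same time. The paper calls the latter non-treated. Each group had 3 libraries, and since the labels do not name separate cultures, the p-values measure the spread between these libraries, which may be technical. The mutant was expressed from a retroviral vector in selected cells, and 2-HG was given at 1 dose and 1 time, which limits both as models. No library of cells given wild-type IDH2 is among the 12, so an effect of the mutation and one of added IDH2 cannot be told apart.

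Mitosis is driven by CDK1 bound to cyclins A and B, with Polo-like and Aurora kinases acting beside it. Kinetochores, large protein assemblies on the centromeres, tie chromosomes to spindle microtubules, and the spindle checkpoint holds back the anaphase-promoting complex until all of them are attached. Separase then cleaves cohesin, and motor proteins of the central spindle direct cytokinesis. Genes of this group are transcribed late in the cell cycle, and in culture their RNA levels are widely used as a sign of how many cells divide. In bulk RNA, fewer dividing cells and less RNA per cell cannot be told apart.

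Promoters of many late cell-cycle genes hold a CHR element, the letters TTTGAA, near the start site and CCAAT boxes upstream of it. RefSeq promoter windows on GRCm38.p6, 250 bases before to 50 bases after a start site, were at hand for 46 of the 57 genes, 50 windows in all. The other 11 are Aurkb, Ccna2, Cdc25c, Esco2, Foxm1, Incenp, Kif20a, Pbk, Smc4, Spc24 and Tpx2. TTTGAA on either strand was found in 34 of the 50 windows (68.0%), against 17.9% of all 32851 windows of the same length. CCAAT on either strand was found in 37 windows (74.0%, against 37.4%), and both together in 28 (56.0%, against 6.95%). The variant TTCGAA was in 5 windows (10.0%, against 1.56%), TTTGGCGC in 3 (6.0%, against 0.514%) and TTTCCCGC in 1 (2.0%, against 1.07%), the last pair being E2F-like letters. In 31 windows (62.0%), against 4.94% of all windows, TTTGAA lay within 50 bases of the start site, a distance chosen after the positions were seen. Such a match describes the letters of the window and does not show that a factor binds there. The 5 windows below are printed 5′ to 3′ on the strand of the gene, with matches to TTTGAA or to CCAAT on either strand in capitals. They are those of Cdca5, which had the largest fall in 2MUT with all libraries in the fit, of Cdk1 and Ccnb2, a kinase and a cyclin of mitotic entry, of Top2a, whose window holds 6 CCAAT matches, and of Birc5, whose window holds neither set of letters. They lie at chr19:6084847-6085146 (plus strand), chr10:69352863-69353162 (minus), chr9:70421505-70421804 (minus), chr11:99024140-99024439 (minus) and chr11:117848987-117849286 (plus).
Cdca5: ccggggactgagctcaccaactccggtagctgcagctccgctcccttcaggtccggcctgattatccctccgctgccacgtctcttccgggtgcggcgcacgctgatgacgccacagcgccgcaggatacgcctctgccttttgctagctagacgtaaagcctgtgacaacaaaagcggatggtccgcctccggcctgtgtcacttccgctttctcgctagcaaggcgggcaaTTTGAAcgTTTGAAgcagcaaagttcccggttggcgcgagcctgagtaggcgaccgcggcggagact
Cdk1: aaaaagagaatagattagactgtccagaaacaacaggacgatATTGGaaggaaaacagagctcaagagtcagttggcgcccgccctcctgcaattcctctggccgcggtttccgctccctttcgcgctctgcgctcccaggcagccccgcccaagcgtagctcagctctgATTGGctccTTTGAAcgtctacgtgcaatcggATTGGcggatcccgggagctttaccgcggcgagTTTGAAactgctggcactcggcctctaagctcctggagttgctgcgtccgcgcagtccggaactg
Ccnb2: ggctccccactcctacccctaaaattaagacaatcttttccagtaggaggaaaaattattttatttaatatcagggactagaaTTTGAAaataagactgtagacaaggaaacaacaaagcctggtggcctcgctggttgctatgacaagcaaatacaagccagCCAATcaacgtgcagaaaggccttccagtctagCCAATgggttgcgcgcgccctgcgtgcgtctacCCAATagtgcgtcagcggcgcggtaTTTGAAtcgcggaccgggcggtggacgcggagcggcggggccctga
Top2a: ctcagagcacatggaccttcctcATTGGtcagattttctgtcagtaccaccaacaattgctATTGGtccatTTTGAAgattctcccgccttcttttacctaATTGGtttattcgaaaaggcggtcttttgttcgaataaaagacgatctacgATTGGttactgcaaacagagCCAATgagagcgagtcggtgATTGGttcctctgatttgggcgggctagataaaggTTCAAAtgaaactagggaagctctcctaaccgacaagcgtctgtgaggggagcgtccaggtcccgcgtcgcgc
Birc5: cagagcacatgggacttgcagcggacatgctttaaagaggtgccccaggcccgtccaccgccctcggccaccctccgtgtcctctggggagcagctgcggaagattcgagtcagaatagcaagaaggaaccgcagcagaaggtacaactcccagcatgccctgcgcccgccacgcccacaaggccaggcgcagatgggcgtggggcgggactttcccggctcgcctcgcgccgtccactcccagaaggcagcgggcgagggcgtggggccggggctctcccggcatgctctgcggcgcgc
The letters nearest to the start site stand at -17 and -9 in Cdca5, -15 in Cdk1, 5 in Ccnb2 and -23 in Top2a, counted as the first base of the match, with 1 as the start site. Neither motif was found in 7 of the 50 windows (14.0%).

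The values are RPM, the reads on a gene scaled so that the genes of a library sum to 1e+06, from Ion AmpliSeq libraries. That kit amplifies a small stretch per transcript. A value therefore reflects that stretch, and levels are not compared between genes or between the experiments. The libraries held 6472439 to 7313602 reads in the IDH2 experiment and 14959318 to 18363768 in the 2-HG experiment, where 3 reads amount to 0.41 to 0.464 RPM and 0.163 to 0.201 RPM. The cells carried fibroblast transcripts, with Col1a1 at a mean of 6238 RPM in Control, while Epcam and Krt18, epithelial genes, were listed at 0 in every library and Ptprc, the pan-leukocyte gene, at 0 in 11 of 12. Since some genes of dividing cells are also listed at 0 in the IDH2 table, a listed 0 does not show that a transcript is absent. Summed over the listed fibroblast markers, of which there were 10 in the IDH2 table and 8 in the 2-HG table, the level was 11150 to 12220 RPM in Control against 7653 to 8278 RPM in 2MUT, and 20410 to 21940 RPM in 2-HG(-) against 13920 to 15220 RPM in 2-HG(+). No listed fibroblast marker was at 0, but in the IDH2 table only 8 of the 10 averaged at least 1 RPM. The others, S100a4 and Prrx1, were not tested. Of 8 markers tested, 7 were lower in 2MUT (87.5%, against 17.3% of all genes) and Pdgfra was not called (0.31). Pdgfra was called higher with DESeq2, upper-quartile scaling or a replicate block, and without Control replicate 3. The calls of Pdgfrb (-0.27) and Col1a1 (-0.26) were lost in 14 and 6 of the 18 alternative fits. With 2-HG, 4 of 8 were lower, against 16.7% of all genes, 1, Thy1, was higher (0.71) and 3 were not called. The part of these shifts in the changes below was not tested. The epithelial, endothelial and muscle lists summed to at most 0.712, 2.94 and 3.46 RPM in any library. The leukocyte list summed to 7.57 to 14.6 RPM, with the largest part of the sum from Cd68 in each group.

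In 2MUT cells, the mitosis genes were lower almost without exception. Of the 50 genes tested, those with a mean of at least 1 RPM over the 6 libraries, 49 were lower at a limma adjusted p under 0.05, none was higher, and 1, Racgap1, did not pass. Over all 11065 genes tested, 17.3% were lower and 16.5% higher, 33.8% in all. Changes are log2 fold changes on the log2(RPM + 1) scale throughout. Their median over the 50 genes was -1.79, a fold of 0.288, against 0.0081 for all genes, and the range ran from -3.03 in Cdca5 to -0.64 in Racgap1. Summed over the 50 genes, the Control libraries held 2425, 2736 and 2464 RPM and the 2MUT libraries 626, 690 and 620 RPM. The 3 libraries of each group lay close together. In 49 of the 50 genes every 2MUT library lay below every Control library, against 24.0% of all genes tested. The other 7 genes were listed but had means under 1 RPM, and were not tested. Ccnb1, cyclin B1, was listed at 0 in all 6 libraries, as was Pcna, a replication gene that dividing cells use, so nothing is read from it.

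In MEF cells given 2-HG, most of these genes were higher. All 56 listed genes were tested, and 51 were higher, none was lower, and 5, Ccnb2, Foxm1, Cenpf, Kif11 and Kif4, did not pass. Over all 10384 genes tested, 16.1% were higher and 16.7% lower, 32.8% in all. The median log2 fold change was 0.77, a fold of 1.71, against -0.0208 for all genes, with a range from 0.22 in Ccnb2 to 1.61 in Pbk. Summed over the 56 genes, the 2-HG(-) libraries held 2082, 2179 and 2128 RPM and the 2-HG(+) libraries 3580, 3816 and 3737 RPM. In 50 genes every 2-HG(+) library lay above every 2-HG(-) library, against 22.2% of all genes tested. The 2-HG(+) replicate 1 library was the lowest of its group in 35 of 56 genes, against 9 and 12 genes for replicates 2 and 3. All 50 genes tested in both experiments had a negative log2 fold change in 2MUT and a positive one with 2-HG.

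**Figure D1:**
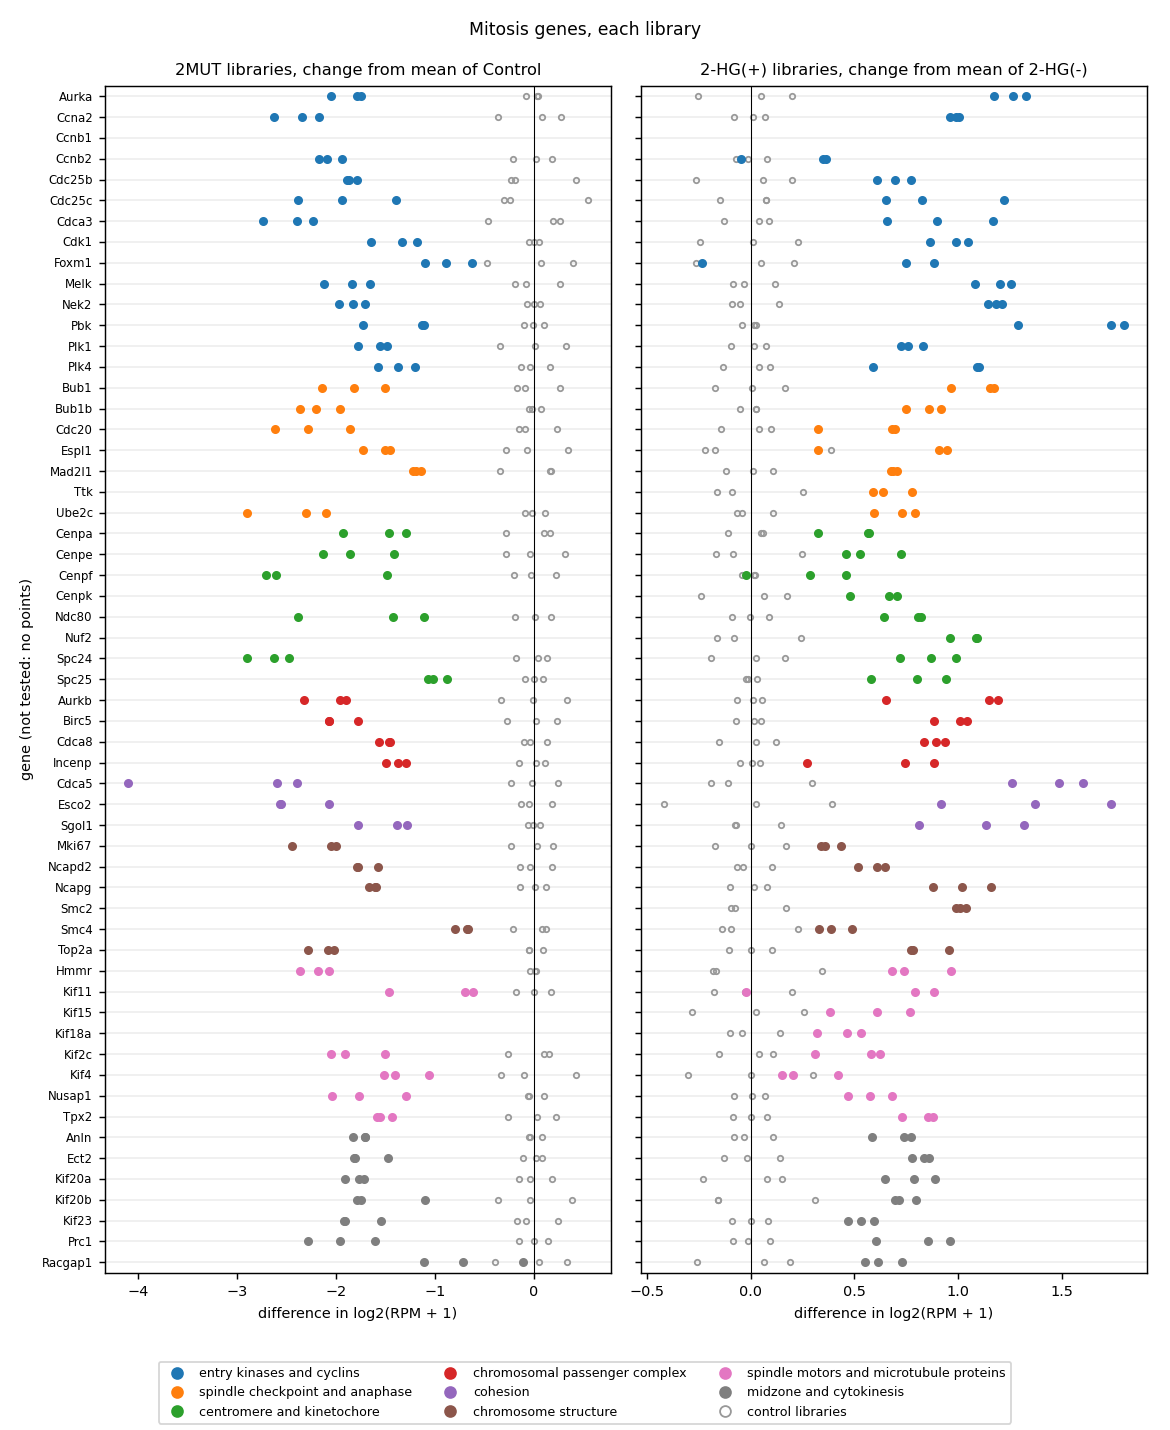
Each row is a gene and each point a library, placed by its difference in log2(RPM + 1) from the mean of the control libraries of its experiment (left, 2MUT against Control; right, 2-HG(+) against 2-HG(-)). Filled points are 2MUT or 2-HG(+) libraries coloured by role, open points are control libraries, and genes with no points were not tested. Of the 50 genes tested on the left, 49 have all filled points below the open ones, and of the 56 on the right, 50 have them above.

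The kinases and cyclins of mitotic entry were lower in 2MUT in 13 of 13 genes tested (median log2 fold change -1.85) and higher with 2-HG in 11 of 13 (median 0.93). Beside this and each later count by role stand 17.3% of all genes lower in 2MUT and 16.1% higher with 2-HG. Ccna2 encodes cyclin A2, which activates CDK2 and CDK1. It stood at 202, 231 and 148 RPM in the Control libraries and 36.6, 41.6 and 29.9 RPM in 2MUT (log2 fold change -2.38, SE 0.17, adjusted p = 3.3e-06). With 2-HG it went from 171, 178 and 160 RPM to 342, 338 and 332 RPM (log2 fold change 0.99, SE 0.09, adjusted p = 4.4e-05), with every treated library above every control library. Cdk1, the kinase that triggers mitosis, was at 70.4, 73.1 and 75.7 RPM in Control and 31.7, 28.4 and 22.7 RPM in 2MUT (log2 fold change -1.39, SE 0.14, adjusted p = 3.6e-05). It was at 73.7, 61.5 and 85.6 RPM in 2-HG(-) and 134, 152 and 146 RPM in 2-HG(+) (log2 fold change 0.97, SE 0.13, adjusted p = 4.5e-04). Neither pair of groups overlapped. Plk1, the Polo-like kinase of centrosomes and kinetochores, fell from 17.6, 28.5 and 22.8 RPM to 5.87, 7.03 and 7.43 RPM (log2 fold change -1.60, SE 0.20, adjusted p = 1.4e-04). It rose from 21.2, 19.7 and 22.2 RPM to 35.4, 36.3 and 38.2 RPM with 2-HG (log2 fold change 0.77, SE 0.11, adjusted p = 6.7e-04). Aurka encodes Aurora A, the kinase of the spindle poles. Its values were 59.6, 59.4 and 55.0 RPM in Control and 16.1, 16.5 and 13.2 RPM in 2MUT (log2 fold change -1.86, SE 0.14, adjusted p = 4.1e-06), and 42.3, 46.9 and 34.0 RPM in 2-HG(-) and 92.9, 104 and 99.2 RPM in 2-HG(+) (log2 fold change 1.25, SE 0.13, adjusted p = 9.7e-05). All 3 libraries lay on the same side in each case.

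Among the other entry genes, Pbk, a mitotic kinase, had the largest rise with 2-HG, from 12.9, 12.2 and 12.8 RPM to 32.3, 44.5 and 46.4 RPM (log2 fold change 1.61, SE 0.15, adjusted p = 5.6e-05), and fell from 9.47, 8.83 and 10.3 RPM to 2.16, 3.81 and 3.85 RPM in 2MUT (log2 fold change -1.32, SE 0.22, adjusted p = 9.9e-04). It was the only gene of the 50 whose change with 2-HG exceeded in size its change in 2MUT. Cdca3, a trigger of mitotic entry, fell from 57.4, 60.1 and 36.1 RPM to 6.64, 9.81 and 8.67 RPM (log2 fold change -2.46, SE 0.21, adjusted p = 1.2e-05). The centrosomal kinase gene Nek2 rose with 2-HG from 26.6, 27.3 and 31.2 RPM to 63.7, 66.9 and 65.5 RPM (log2 fold change 1.18, SE 0.11, adjusted p = 4.7e-05), and the kinase gene Melk from 18.2, 20.3 and 17.5 RPM to 44.1, 45.8 and 40.4 RPM (log2 fold change 1.18, SE 0.11, adjusted p = 7.4e-05). Both groups were tight and apart. Foxm1 encodes a transcription factor of late cell-cycle genes. It fell from 16.0, 30.2 and 23.9 RPM in Control to 11.7, 14.3 and 10.0 RPM in 2MUT (log2 fold change -0.87, SE 0.22, adjusted p = 0.012). With 2-HG it was at 6.37, 5.62 and 4.32 RPM and 4.43, 9.74 and 10.8 RPM, so that replicate 1 of 2-HG(+) lay among the controls (log2 fold change 0.47, SE 0.27, adjusted p = 0.22). Without that library the log2 fold change of Foxm1 was 0.82 with adjusted p = 0.0068. Ccnb2, cyclin B2, was at 42.2, 49.9 and 55.6 RPM in Control and 10.0, 10.7 and 12.0 RPM in 2MUT (log2 fold change -2.07, SE 0.15, adjusted p = 4.1e-06), and at 62.1, 55.8 and 58.2 RPM and 56.7, 75.04 and 75.7 RPM in the 2-HG experiment (log2 fold change 0.22, SE 0.13, adjusted p = 0.22). Replicate 1 of 2-HG(+) was again the low library, and without it the change of Ccnb2 was 0.36 with adjusted p = 0.029. The remaining entry genes, Cdc25b, Cdc25c and Plk4, a pair of phosphatases that activate CDK1 and the kinase of centriole duplication, had log2 fold changes of -1.85, -1.91 and -1.38 in 2MUT and 0.69, 0.90 and 0.93 with 2-HG, and passed the test in both.

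**Figure D2:**
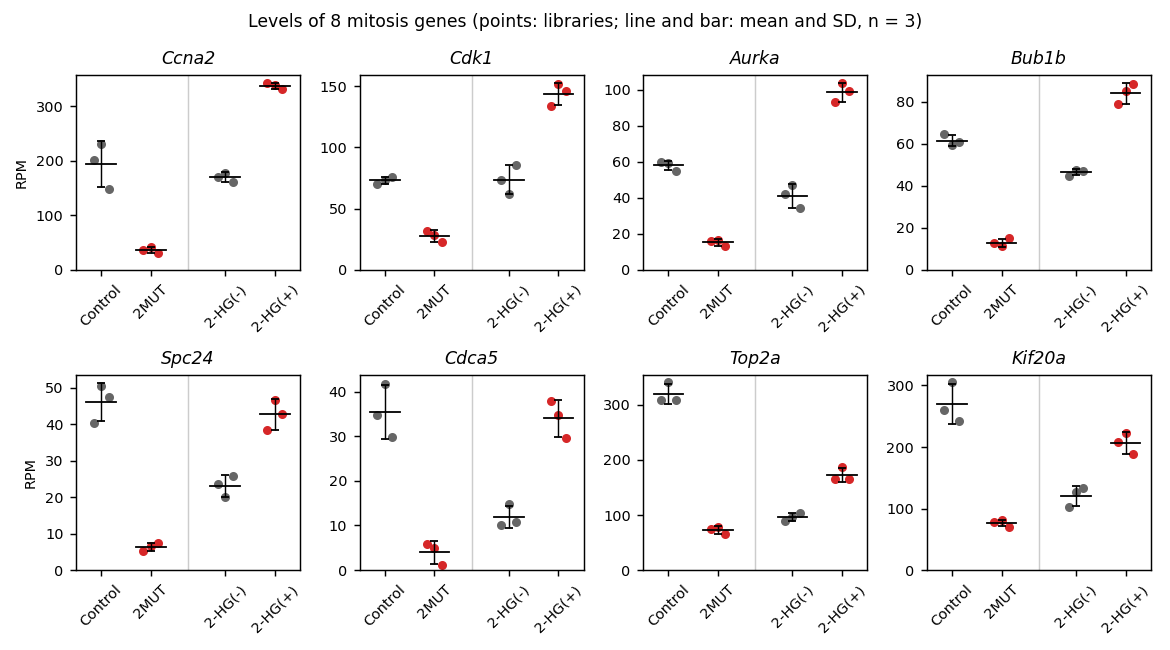
RPM of 8 genes that passed the test in both experiments, Ccna2, Cdk1, Aurka, Bub1b, Spc24, Cdca5, Top2a and Kif20a. Of these, Ccna2, Cdk1 and Aurka share a role, mitotic entry. Axes are linear from 0, with 1 point per library, the mean as a line and the SD as a bar (n = 3). Control and 2-HG(-) libraries are grey, and 2MUT and 2-HG(+) libraries are red. In each gene the 2MUT points lie below all Control points and the 2-HG(+) points above all 2-HG(-) points; Ccna2, for example, is at 29.9 to 41.6 RPM in 2MUT and at 332 to 342 RPM in 2-HG(+).

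Genes of the spindle checkpoint and anaphase were lower in 6 of 6 tested in 2MUT (median -2.0) and higher in 7 of 7 with 2-HG (median 0.71). Bub1 and Bub1b encode checkpoint proteins of the kinetochore. Bub1 went from 7.55, 5.70 and 5.33 RPM to 0.618, 1.02 and 1.51 RPM in 2MUT (log2 fold change -1.82, SE 0.25, adjusted p = 2.7e-04) and from 9.91, 7.62 and 8.77 RPM to 18.0, 20.9 and 20.6 RPM with 2-HG (log2 fold change 1.10, SE 0.14, adjusted p = 3.4e-04). Bub1b went from 64.5, 59.3 and 60.7 RPM to 12.5, 11.1 and 15 RPM (log2 fold change -2.18, SE 0.14, adjusted p = 1.9e-06) and from 44.8, 47.3 and 47.3 RPM to 78.8, 85.0 and 88.6 RPM (log2 fold change 0.84, SE 0.10, adjusted p = 2.0e-04). For both genes the groups stood apart in each experiment, though Bub1 rested on few reads in 2MUT. Cdc20, the activator of the anaphase-promoting complex that the checkpoint restrains, fell from 44.1, 57.7 and 45.8 RPM to 7.11, 12.7 and 9.22 RPM (log2 fold change -2.26, SE 0.20, adjusted p = 1.5e-05). With 2-HG it was at 37.6, 31.6 and 36.1 RPM and 44.1, 56.8 and 57.4 RPM (log2 fold change 0.57, SE 0.13, adjusted p = 0.0096). Ube2c, the ubiquitin-conjugating enzyme of that complex, fell from 179, 196 and 170 RPM to 36.0, 41.6 and 23.4 RPM (log2 fold change -2.43, SE 0.18, adjusted p = 4.0e-06) and rose by 0.71 with 2-HG. Espl1 encodes separase. It fell from 12.4, 10.5 and 16.8 RPM to 3.25, 3.95 and 4.13 RPM (log2 fold change -1.56, SE 0.21, adjusted p = 2.6e-04), while with 2-HG it was at 4.30, 4.48 and 7.08 RPM and 6.74, 10.6 and 10.9 RPM (log2 fold change 0.73, SE 0.22, adjusted p = 0.03). The lowest 2-HG(+) library of Espl1 was below the highest 2-HG(-) library. Its call with 2-HG was lost when any of 4 of the 6 libraries was left out, 2-HG(-) replicates 1 and 2 and 2-HG(+) replicates 2 and 3, with adjusted p from 0.0835 to 0.1. Mad2l1, the checkpoint protein MAD2, had changes of -1.19 and 0.69. Ttk, the checkpoint kinase MPS1, was at 0 to 0.413 RPM in the IDH2 experiment, at or under the worth of 3 reads, and rose by 0.67 with 2-HG (adjusted p = 0.0069).

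At the centromere and kinetochore, 6 of 6 genes tested were lower in 2MUT (median -1.72) and 7 of 8 were higher with 2-HG (median 0.69). Spc24, a subunit of the NDC80 complex that binds microtubules, fell from 40.4, 50.4 and 47.4 RPM to 5.25, 6.59 and 7.43 RPM (log2 fold change -2.67, SE 0.17, adjusted p = 1.4e-06). With 2-HG it rose from 23.5, 20.0 and 25.9 RPM to 38.5, 46.7 and 42.8 RPM (log2 fold change 0.86, SE 0.13, adjusted p = 0.001). Ndc80 itself was at 9.17, 7.83 and 10.4 RPM in Control and 0.927, 3.66 and 2.75 RPM in 2MUT (log2 fold change -1.64, SE 0.30, adjusted p = 0.0018), and at 7.19, 6.68 and 6.24 RPM and 12.6, 11.0 and 12.5 RPM in the 2-HG experiment (log2 fold change 0.76, SE 0.13, adjusted p = 0.002). The other subunits followed where they could be measured. Spc25, the tested gene nearest to the filter with a mean of 2.53 RPM, was at 3.40, 3.99 and 3.69 RPM in Control and 1.54, 1.32 and 1.24 RPM in 2MUT (log2 fold change -0.99, SE 0.22, adjusted p = 0.0052), and it rose by 0.77 with 2-HG. Nuf2 was at 0 to 1.92 RPM in the IDH2 experiment and rose by 1.05 with 2-HG, from 6.48, 8.36 and 6.06 RPM to 15.8, 15.9 and 14.4 RPM. Cenpa, the histone H3 variant that marks centromeres, went from 37.7, 49.6 and 51.7 RPM to 11.3, 16.0 and 18.2 RPM (log2 fold change -1.56, SE 0.19, adjusted p = 1.3e-04) and from 66.4, 59.2 and 66.7 RPM to 80.4, 95.2 and 95.5 RPM (log2 fold change 0.49, SE 0.11, adjusted p = 0.0077). Cenpe, a kinetochore motor, went from 25.9, 30.8 and 39.8 RPM to 8.03, 11.3 and 6.47 RPM (log2 fold change -1.80, SE 0.22, adjusted p = 1.2e-04). With 2-HG it was at 28.8, 36.5 and 27.1 RPM and 42.4, 44.5 and 51.1 RPM (log2 fold change 0.57, SE 0.14, adjusted p = 0.011), a call lost without 2-HG(-) replicate 3 (adjusted p = 0.0538). Cenpf, a large outer kinetochore protein, fell from 19.7, 26.6 and 22.3 RPM to 2.63, 7.47 and 2.89 RPM (log2 fold change -2.27, SE 0.29, adjusted p = 1.9e-04) and did not pass with 2-HG, at 13.2, 13.8 and 13.9 RPM and 13.4, 19.2 and 16.9 RPM (log2 fold change 0.24, SE 0.15, adjusted p = 0.24). Cenpk was at 0 to 1.38 RPM in the IDH2 experiment and rose by 0.62 with 2-HG.

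The 4 genes of the chromosomal passenger complex, which corrects faulty attachments, were all lower in 2MUT (median -1.74) and all higher with 2-HG (median 0.93). Aurkb, its kinase Aurora B, went from 48.7, 78.1 and 61.0 RPM to 15.8, 15.1 and 11.4 RPM (log2 fold change -2.06, SE 0.19, adjusted p = 1.7e-05) and from 20.0, 19.4 and 18.3 RPM to 30.8, 43.8 and 45.2 RPM (log2 fold change 1.00, SE 0.15, adjusted p = 0.0011). Birc5, the subunit survivin, went from 107, 152 and 131 RPM to 29.8, 36.7 and 29.7 RPM (log2 fold change -1.98, SE 0.15, adjusted p = 4.3e-06) and from 60.4, 59.0 and 55.6 RPM to 109, 121 and 118 RPM (log2 fold change 0.98, SE 0.10, adjusted p = 7.5e-05). Cdca8, the subunit borealin, changed by -1.49 and 0.89, and the scaffold gene Incenp by -1.39 and 0.64. The call of Incenp with 2-HG was lost without 2-HG(+) replicate 2 (adjusted p = 0.0509). Cohesion genes, which hold sister chromatids together, were lower in 3 of 3 and higher in 3 of 3 (medians -2.40 and 1.34). Cdca5, or sororin, protects cohesin on replicated DNA. It fell from 34.8, 41.7 and 29.8 RPM to 5.87, 4.98 and 1.10 RPM (log2 fold change -3.03, SE 0.37, adjusted p = 1.2e-04), with 2MUT replicate 3 far under the others. Without that library its fall was -2.49, less than that of Spc24 (-2.77 in the same fit). With 2-HG, Cdca5 rose from 10.2, 14.7 and 10.9 RPM to 37.8, 34.8 and 29.6 RPM (log2 fold change 1.45, SE 0.16, adjusted p = 1.5e-04). Esco2, the acetyltransferase that establishes cohesion, fell from 36.0, 30.5 and 28.7 RPM to 4.48, 4.54 and 6.74 RPM (log2 fold change -2.40, SE 0.19, adjusted p = 6.2e-06) and rose from 16.9, 30.4 and 23.4 RPM to 78.7, 60.8 and 44.3 RPM (log2 fold change 1.34, SE 0.24, adjusted p = 0.0022). The 2-HG(+) libraries of Esco2 spread widely but stayed above the controls. Sgol1, shugoshin, which guards centromeric cohesin, fell by 1.48 and rose from 14.2, 12.0 and 12.0 RPM to 23.1, 29.0 and 33.1 RPM (log2 fold change 1.09, SE 0.15, adjusted p = 6.3e-04).

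Among the chromosome structure genes, 5 of 5 tested were lower in 2MUT (median -1.72) and 6 of 6 were higher with 2-HG (median 0.72). Top2a encodes topoisomerase IIα, which untangles sister DNA. Its values were 310, 341 and 309 RPM in Control and 74.6, 77.7 and 64.8 RPM in 2MUT (log2 fold change -2.13, SE 0.10, adjusted p = 2.9e-07), and 89.1, 96.0 and 103 RPM in 2-HG(-) and 165, 187 and 166 RPM in 2-HG(+) (log2 fold change 0.84, SE 0.10, adjusted p = 2.6e-04). Mki67, the proliferation antigen Ki-67 that coats mitotic chromosomes, fell from 45.1, 37.5 and 50.7 RPM to 7.26, 10.2 and 9.91 RPM (log2 fold change -2.17, SE 0.18, adjusted p = 7.6e-06). With 2-HG it was at 22.1, 25 and 19.5 RPM and 28.6, 30.2 and 28.2 RPM (log2 fold change 0.38, SE 0.12, adjusted p = 0.041). The 2-HG(+) values of Mki67 all lay above the 2-HG(-) values, but the rise was small. The call of Mki67 was lost on leaving out any of 5 of the 6 libraries, that is all but 2-HG(-) replicate 2, with adjusted p from 0.0576 to 0.16. Ncapg and Ncapd2, subunits of condensin I, which compacts chromosomes, fell by 1.62 and 1.72 and rose by 1.02 and 0.59. Smc4, a core subunit of both condensins, had the smallest change among the genes that passed in 2MUT, from 9.47, 12.3 and 11.9 RPM to 6.64, 6.00 and 6.61 RPM (log2 fold change -0.71, SE 0.18, adjusted p = 0.011), and rose by 0.40 with 2-HG. That rise of Smc4 was lost without 2-HG(-) replicate 1 or 3 or 2-HG(+) replicate 2 (adjusted p from 0.0843 to 0.0972). Its partner Smc2 was just outside the limit of 1 RPM in the IDH2 experiment, with a mean of 0.986 RPM at 0.740, 2.85 and 0.547 RPM in Control and 1.08, 0.146 and 0.550 RPM in 2MUT, values that overlap. With 2-HG, Smc2 rose from 23.5, 28.1 and 23.2 RPM to 52.2, 51.1 and 50.3 RPM (log2 fold change 1.01, SE 0.11, adjusted p = 1.6e-04).

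Spindle motors and microtubule proteins were lower in 6 of 6 genes tested in 2MUT (median -1.61) and higher in 6 of 8 with 2-HG (median 0.56). Kif11, the Eg5 motor that separates the spindle poles, was at 5.62, 4.84 and 6.43 RPM in Control and 1.39, 3.07 and 3.30 RPM in 2MUT (log2 fold change -0.93, SE 0.26, adjusted p = 0.018), a call lost without Control replicate 1 or 2MUT replicate 1 (adjusted p = 0.0511 and 0.0647). With 2-HG it was at 7.46, 6.62 and 8.89 RPM and 7.47, 13.9 and 14.9 RPM (log2 fold change 0.55, SE 0.23, adjusted p = 0.098), where replicate 1 of 2-HG(+) lay among the controls. Without that library the change of Kif11 was 0.84 with adjusted p = 0.00354. With all libraries kept, Kif11 passed after quantile scaling (adjusted p = 0.0354), with edgeR (0.0498) and with DESeq2 (0.0206). Tpx2, the activator of Aurora A on the spindle, went from 26.8, 32.9 and 37.7 RPM to 11.3, 10.2 and 10.0 RPM (log2 fold change -1.53, SE 0.16, adjusted p = 5.9e-05) and from 33.5, 35.7 and 37.6 RPM to 59.8, 65.2 and 66.3 RPM (log2 fold change 0.82, SE 0.10, adjusted p = 3.3e-04). Hmmr, Nusap1 and Kif2c, which bind or depolymerize microtubules, fell by 2.20, 1.70 and 1.82 and rose by 0.80, 0.58 and 0.51. The rise of Kif2c was lost without 2-HG(+) replicate 2 or 3 (adjusted p = 0.0605 and 0.0536). Kif4, a chromosome-arm motor, fell by 1.33 and was at 15.6, 12.5 and 9.91 RPM and 17.1, 13.9 and 14.5 RPM in the 2-HG experiment, where the groups overlapped (log2 fold change 0.26, SE 0.17, adjusted p = 0.27). Kif15 and Kif18a were under 1 RPM on average in the IDH2 experiment, and their rises with 2-HG, 0.59 and 0.44, were lost on leaving out any of 4 and 5 of the 6 libraries, with adjusted p from 0.0607 to 0.111 and from 0.0533 to 0.144. For Kif15 these were 2-HG(-) replicates 1 and 2 and 2-HG(+) replicates 2 and 3, and for Kif18a all but 2-HG(-) replicate 2.

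Of the midzone and cytokinesis genes, 6 of 7 were lower in 2MUT (median -1.75) and 7 of 7 higher with 2-HG (median 0.74). Kif20a, a motor needed at the central spindle, was at 261, 306 and 242 RPM in Control and 78.0, 81.0 and 70.6 RPM in 2MUT (log2 fold change -1.80, SE 0.11, adjusted p = 1.3e-06), and at 102, 126 and 133 RPM and 208, 223 and 188 RPM in the 2-HG experiment (log2 fold change 0.78, SE 0.12, adjusted p = 0.0012). Kif23, the motor of centralspindlin, went from 24.6, 23.1 and 30.9 RPM to 6.18, 6.15 and 8.26 RPM (log2 fold change -1.79, SE 0.18, adjusted p = 4.0e-05) and from 37.0, 39.3 and 34.8 RPM to 51.6, 54.0 and 56.5 RPM (log2 fold change 0.53, SE 0.10, adjusted p = 0.0036). Prc1, which bundles midzone microtubules, went from 36.7, 45.3 and 41.0 RPM to 9.73, 12.7 and 7.57 RPM (log2 fold change -1.95, SE 0.19, adjusted p = 2.6e-05) and from 39.4, 41.4 and 44.7 RPM to 64.0, 76.3 and 82.3 RPM (log2 fold change 0.81, SE 0.12, adjusted p = 8.5e-04). These 3 genes had no overlap between groups in either experiment. Anln, anillin of the contractile ring, went from 57.7, 58.1 and 63.4 RPM to 17.6, 17.6 and 16.1 RPM (log2 fold change -1.75, SE 0.13, adjusted p = 3.6e-06) and from 45.4, 39.8 and 41.1 RPM to 63.5, 70.9 and 72.5 RPM (log2 fold change 0.70, SE 0.11, adjusted p = 9.7e-04). Ect2, the exchange factor that activates RhoA at the cell equator, changed by -1.70 and 0.83, and the motor gene Kif20b by -1.54 and 0.74. Racgap1, the partner of Kif23 in centralspindlin, was the exception in 2MUT, at 12.9, 7.41 and 10.4 RPM in Control and 5.72, 4.10 and 9.22 RPM in 2MUT, where the groups overlapped (log2 fold change -0.64, SE 0.27, adjusted p = 0.093). Without 2MUT replicate 3 its change was -0.91 with adjusted p = 0.03. With 2-HG, Racgap1 went from 53.04, 66.7 and 72.8 RPM to 106, 93.6 and 97.9 RPM (log2 fold change 0.63, SE 0.13, adjusted p = 0.0047).

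Whether the changes of the mitosis genes differ between the experiments was tested over the 12 libraries as the change in 2MUT minus the change with 2-HG. All 50 genes tested in both experiments had a lower value, with adjusted p under 0.05, against 19.5% of the 9594 genes tested, of which another 19.9% had a higher value. The median difference was -2.52 on the log2 scale, against 0.0473 over all genes, from -4.48 in Cdca5 (SE 0.47, adjusted p = 7.0e-06) to -1.11 in Smc4 (SE 0.18, adjusted p = 2.8e-04). Of the 50 genes, 44 passed the test both as lower in 2MUT and as higher with 2-HG, and in 49 the change in 2MUT was the larger in size. Foxm1 and Kif11, which were not called with 2-HG in the fit reported, differed by -1.34 (SE 0.40, adjusted p = 0.017) and -1.48 (SE 0.37, adjusted p = 0.006). In a test without moderation the difference of Foxm1 did not pass (adjusted p = 0.0611), nor did its fall in 2MUT (adjusted p = 0.115). Across the 50 genes, which are not independent, the signed changes in 2MUT and with 2-HG had Pearson r = -0.261 and Spearman rho = -0.237, so that larger falls went weakly with larger rises. The added 1 RPM understates the changes of low genes.

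**Figure D3:**
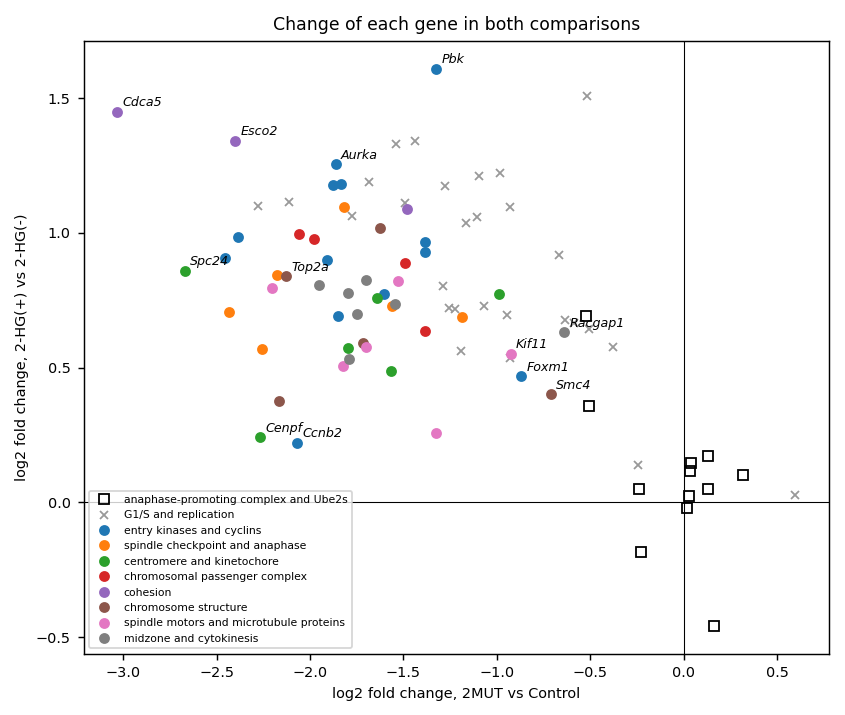
Each point is a gene, placed by its log2 fold change in 2MUT against Control (horizontal) and in 2-HG(+) against 2-HG(-) (vertical). Filled circles are the mitosis genes by role, crosses are G1/S and replication genes, and open squares are subunits of the anaphase-promoting complex and Ube2s. All 50 circles lie in the upper left region, with Cdca5 at -3.03 and 1.45 and Pbk at -1.32 and 1.61, and most squares lie near 0 on both axes.

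Further genes of the pathway were counted from lists. Of 65 other mitosis genes tested in 2MUT, 41 were lower (63.1%, against 17.3% of all genes) and 3 were higher (4.62%, against 16.5%). Of the 65, 2 had a 2MUT mean under 1 RPM and so were tested through their Control level, and without them 40 of 63 were lower. The largest falls were those of Psrc1 (-2.57), Troap (-2.34) and Kif18b (-2.32), and the genes that rose were Nipbl (0.55), Stag2 (0.53) and Numa1 (0.46). These rises were lost in 1, 6 and 2 of 18 alternative fits, and none passed in the unmoderated test. With 2-HG, 53 of 77 were higher (68.8%, against 16.1% of all genes) and 2, Nipbl and Numa1, were lower (2.6%, against 16.7%). The largest rises were those of Kntc1 (1.45), Gsg2 (1.39) and Nsl1 (1.19). Nipbl, which loads cohesin, was at 152, 156 and 173 RPM in Control and 271, 232 and 208 RPM in 2MUT (log2 fold change 0.55, SE 0.11, adjusted p = 0.0034), and at 150, 147 and 180 RPM and 105, 123 and 131 RPM in the 2-HG experiment (log2 fold change -0.41, SE 0.12, adjusted p = 0.027). Numa1, which focuses spindle poles and is also a protein of the interphase nucleus, moved the same way, by 0.46 and -0.80. A list of the anaphase-promoting complex, which cells carry throughout the cycle, held its subunits and Ube2s, an enzyme that extends ubiquitin chains and is not a subunit. In 2MUT, 1 of 12 genes was lower (8.33%, under the 17.3% of all genes), and that gene was Ube2s (-0.52, adjusted p = 0.0033). With 2-HG, 2 of 13 were higher (15.4%, against 16.1% of all genes), Ube2s (0.69) and the subunit Cdc27 (0.36), and 1 was lower (7.69%, against 16.7%), the subunit Anapc13 (-0.46). The call of Cdc27 was lost in 10 of 18 alternative fits. The medians of this list were 0.032 and 0.049.

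Of the genes of the MuvB, DREAM and B-Myb complexes, which switch the promoters of late cell-cycle genes off and on, 2 of 10 were lower (20.0%) and 1 higher (10.0%) in 2MUT, near the 17.3% and 16.5% of all genes. With 2-HG, 5 of 11 were higher (45.5%) and 1 lower (9.09%), against 16.1% and 16.7% of all genes. Mybl2, the activator B-Myb, was at 40.7, 46.6 and 33.4 RPM in Control and 13.6, 11.9 and 11.3 RPM in 2MUT (log2 fold change -1.63, SE 0.16, adjusted p = 3.4e-05), and at 15.1, 12.6 and 13.1 RPM and 47.2, 39.9 and 39.2 RPM in the 2-HG experiment (log2 fold change 1.56, SE 0.13, adjusted p = 2.6e-05). Rbl2, the pocket protein p130 of the repressive form, was at 47.5, 54.1 and 59.2 RPM and 78.0, 79.9 and 64.1 RPM (log2 fold change 0.46, SE 0.13, adjusted p = 0.02), and at 23.2, 22.5 and 23.5 RPM and 10.8, 9.68 and 14.6 RPM (log2 fold change -0.94, SE 0.15, adjusted p = 0.0015). Mybl2 was lower in 2MUT and higher with 2-HG, and Rbl2 the reverse, but the 2MUT call of Rbl2 was lost without 2MUT replicate 1 or 2 or Control replicate 1 and in the unmoderated test (highest adjusted p = 0.0902). G1/S and replication genes were lower in 22 of 29 in 2MUT (75.9%, against 17.3% of all genes, median -1.10). The largest falls were in Cdt1 (-2.28), Uhrf1 (-2.11) and Mcm5 (-1.78), and 1 gene, E2f3, was higher (0.60). With 2-HG, 27 of 29 were higher (93.1%, against 16.1% of all genes, median 0.92). The largest rises were in Ccne2 (1.51), Rrm2 (1.34) and Chaf1b (1.33). Cdkn1a, the CDK inhibitor p21, was at 69.4, 53.3 and 56.3 RPM in Control and 71.2, 48.8 and 83.9 RPM in 2MUT (log2 fold change 0.16, SE 0.18, adjusted p = 0.53). With 2-HG it went from 5.66, 6.15 and 4.86 RPM to 113, 30.0 and 30.3 RPM (log2 fold change 2.88, SE 0.42, adjusted p = 8.2e-04). Without 2-HG(+) replicate 1 the change of Cdkn1a was 2.25, a fold of 4.76 (adjusted p = 1.2e-05). The library with the highest Cdkn1a, 2-HG(+) replicate 1, was also the lowest of its group in 35 of the 56 mitosis genes, and the part of this in their values was not tested.

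**Figure D4:**
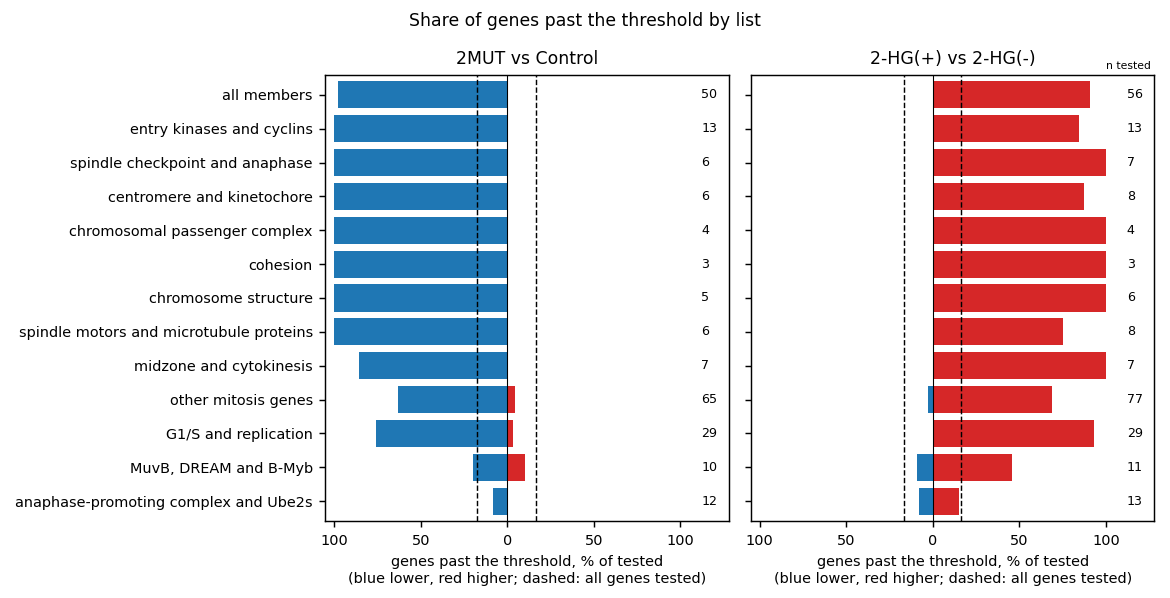
Bars give the percentage of the tested genes of each list that passed the test, lower to the left in blue and higher to the right in red, for 2MUT against Control (left) and 2-HG(+) against 2-HG(-) (right). Numbers at the right edge of each plot are genes tested, and dashed lines mark the percentages over all genes tested. For all members the bars stand for 49 of 50 genes lower and 51 of 56 higher (91.1%), and for the anaphase-promoting complex with Ube2s 8.33% lower on the left and 15.4% higher on the right.

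The genes with TTTGAA in a promoter window had a median log2 fold change of -1.75 in 2MUT and those without it -1.81, and 0.73 and 0.93 with 2-HG, a description with no test. Birc5, whose window holds neither TTTGAA nor CCAAT, changed by -1.98 and 0.98, and Cdk1, with both, by -1.39 and 0.97. By the GENCODE M21 annotation of GRCm38 the 57 genes lie on 17 chromosomes. Pbk and Esco2, which rose by 1.61 and 1.34 with 2-HG, are neighbours on chromosome 14, at 65805837 to 65817822 and 65819038 to 65833994, on opposite strands. Exons of 18 of the 57 genes overlap an exon of another annotated gene, in 14 cases a protein-coding one, such as Ccna2 with Exosc9, Cdc20 with Elovl1, Ube2c with Tnnc2, Kif20a with Cdc23 and Prc1 with Rccd1, each on the opposite strand. Where the amplified targets lie was not used here, and if counting ignored strand, reads of such pairs cannot be told apart.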

How the data were processed

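Per the paper and the labels, the authors prepared Ion AmpliSeq mouse transcriptome libraries, mapped the reads with TMAP to AmpliSeq_Mouse_Transcriptome_V1_Reference and obtained gene counts from the AmpliSeqRNA plug-in. They deposited RPM values, scaled so that each library sums to 1e+06, 1 table per experiment. The genome build behind that reference was not given in the sources used here. Reads recovered from the deposited RPM were whole, within 0.05 of a read, for at least 99.9% of values in every library. Conditions came from the sample labels, and 0 columns were left without one.

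Log2(RPM + 1) values were tested with limma 3.58.1 in R 4.3.3, with a mean-variance trend, on genes averaging 1 RPM or more over the 6 libraries compared, with Benjamini-Hochberg adjustment over all of them. The threshold was an adjusted p of 0.05. The difference between the comparisons was a contrast over 12 libraries. A check on simulated data was run with the spread between libraries (dispersion) set at 0.01, which may differ from that of the real libraries. No result of that check is given here, for the contrast over 12 libraries or otherwise, so nothing is concluded from it. As alternatives, 0.1 RPM was added in place of 1, low values were raised to 1 RPM, the filter was dropped or set at 10 RPM, quantile, median-of-ratios or upper-quartile scaling was applied, the trend or the moderation was left out, recovered reads were tested with edgeR 4.0.16 and DESeq2 1.42.0, a replicate block was fitted, and single libraries were omitted.

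The members, lists and tests were chosen with earlier results of these data known. Any member could be named. Given in full were 24 representatives, the 8 largest rises and falls past the threshold without overlap between groups, and the members nearest the filter. Of other pathway lists, at most the 3 largest called changes in each direction and Cdkn1a were named. The cell type markers named were chosen after their values were seen. Promoters came from RefSeq (GRCm38.p6), and coordinates and exons from GENCODE M21. Plots were drawn with matplotlib from tables made with pandas.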

Additional observations from a re-analysis of the deposited data

Results flagged for a closer look

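The changes of the mitosis genes differed between the experiments by a test of the difference itself. In limma's contrast of the change in 2MUT minus the change with 2-HG, 50 of the 50 genes tested in both were lower at an adjusted p under 0.05, against 19.5% of all genes tested, with a median of -2.52 on the log2 scale. The experiments share no libraries, and their tables were made separately, so that only changes within a table entered the test.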

How the results depend on the processing

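Under the alternatives run, the counts of mitosis genes past the threshold stayed within 1.5 times their values and kept their direction. In 2MUT the count ran from 46 of 50 in the unmoderated test to 50 with the replicate block, and was 38 of 38 with a mean of at least 10 RPM. With 2-HG it ran from 39 in the unmoderated test to 52 with edgeR or quantile scaling. For the difference it ran from 49 in the unmoderated test to 53 of 56 without a filter, and was 37 of 37 at 10 RPM. On recovered reads, edgeR called 3764 and 3546 of all genes in the 2MUT and 2-HG comparisons and DESeq2 3748 and 3666, while the unmoderated test called 2244 and 2237, against 3741 and 3405 with limma as reported. Among the 18 alternatives per comparison, the other mitosis genes lower in 2MUT ranged from 27 of 45 with a mean of at least 10 RPM to 43, and those higher with 2-HG from 33 in the unmoderated test to 58. G1/S and replication genes ranged from 17 to 23 lower in 2MUT and from 18 to 27 higher with 2-HG, and fibroblast markers lower from 5 to 7 and from 4 to 5. Fibroblast markers higher in 2MUT ranged from 0 to 1. Genes of the MuvB, DREAM and B-Myb list ranged from 1 to 3 lower in 2MUT and from 4 to 5 higher with 2-HG, and those of the anaphase-promoting complex list from 1 to 2 lower in 2MUT and from 1 to 2 higher with 2-HG. Of the calls in these lists, 26 of 78 in 2MUT and 35 of 96 with 2-HG were lost in at least 1 alternative, and none changed direction. Those lost most often were Pdgfrb (14 times), Gsg2 (8) and Ccne1 (7) in 2MUT and Cdc27 (10), Cdc25a and Hjurp (9 each) with 2-HG. Of the genes that went against their list, Stag2 and E2f3 were each lost 6 times in 2MUT, Rbl2 4 times, Numa1 2 times and Nipbl 1 time, and Nipbl was lost 4 times with 2-HG, in 3 of them on leaving out 1 library (2-HG(+) replicate 1 or 2, 2-HG(-) replicate 3). Leaving out each library in turn gave 48 to 50, 44 to 52 and 50 to 51 genes, and median changes of -1.77 to -1.70 in 2MUT and 0.73 to 0.80 with 2-HG. The median change in 2MUT moved from -1.79 to -1.91 with 0.1 RPM added, to -1.93 with values under 1 RPM set to 1, to -1.91 with edgeR and to -1.90 with DESeq2; the smaller or absent added value accounts for the direction of the first pair by construction, and for the others the cause was not tested. Same-numbered libraries had correlations of 0.071, 0.029 and 0.032 in the 2MUT comparison and -0.457, -0.158 and 0.057 with 2-HG. Differently numbered libraries reached 0.48 (2-HG(-) replicate 2 with 2-HG(+) replicate 1) and -0.414 (2-HG(-) replicate 2 with 2-HG(+) replicate 3). With 3 libraries per group these values gave no sign of pairing by number and cannot exclude it. With the replicate block, 50, 49 and 50 genes passed in the 3 tests, Racgap1 being gained in 2MUT (adjusted p = 0.0497) and Mki67 and Kif18a lost with 2-HG (adjusted p = 0.0925 and 0.0875). Over the alternatives, calls of single genes were lost 6 times in 2MUT, 44 times with 2-HG and 1 time in the difference, that of Foxm1, and none changed direction. The filter of 1 RPM kept 7 of the 57 genes out of the test in 2MUT, and without it 48 of 56 passed.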
